A study of Mus musculus with 18 samples.

Results

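Interferon-stimulated genes are the genes that a cell switches on when an interferon, a secreted cytokine, binds its receptor. A list of 44 such genes was followed in mouse immune cells before and after a cell wall extract. The members were chosen by gene symbol, with earlier results of these data known. Each was represented by the probe set, out of those annotated with that single symbol, that had the highest mean log2(signal + 16) over all arrays. Of the 44 genes 42 had such a probe set, among 18193 genes with a single-symbol probe set on the array, and all 42 probe sets passed the filter on dim probe sets. The filter asked for a signal above the median of the probe set's own array on at least 4 of 18 arrays, and 25804 of 45037 probe sets passed it. The probe set of Isg15, the ubiquitin-like modifier, lists a second gene, and Ifi44 was not matched, so neither was analysed here.

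Total RNA of 18 samples was hybridised to 18 Affymetrix 3' expression arrays. There were 6 control samples from time 0, called 0 h here, and 6 each at 1 h and 4 h after treatment. According to the design text knockout mice were used with a cell wall extract, and the labels name no deleted gene, strain, age, cell type or source of the extract for any sample. The title names TLR2, a receptor for bacterial lipoproteins, and the cytokine IL-10. Each title also carries an array code. The codes run from 12 to 22, from 32 to 37 and from 44 to 54, and every such range holds 2 arrays at each time. The labels do not say what the ranges stand for, so genotype, day and preparation cannot be told apart as differences between them. The labels tie no sample to an animal or a culture, so a p-value reflects only how far these samples scatter, and that scatter may be technical.

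Type I interferons signal through the receptor chains Ifnar1 and Ifnar2 and the kinases Jak1 and Tyk2. Transcription factors that include STAT2 and IRF9 then bind the interferon-stimulated response element in promoters of the target genes. Interferon gamma uses its own receptor and Jak1 with Jak2, and many of its target promoters hold another element, the gamma-activated site. Macrophages and other myeloid cells can make type I interferon after sensing microbial products and respond to it themselves, and the induced proteins block translation of viral RNA, degrade RNA, trap virus particles, sense foreign nucleic acid or attack vacuoles that hold microbes.

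At 1 h no member passed the test for a change. Against 0 h, 0 of 42 passed limma's test in either direction (Benjamini-Hochberg adjusted p, threshold 0.05), where 0.612% of all tested probe sets passed upward and 0.14% downward. At an unadjusted p below that threshold the count was also 0 in both directions. It was 0 as well when the model also held the code range as a block, where 1.03% and 0.279% of probe sets passed. The log2 differences at 1 h ran from -0.54 (Mx2) to 0.23 (Ddx58), with 11 members above 0 and 31 below. Their median was -0.07, and that of all tested probe sets was -0.04. No member had its 6 arrays at 1 h all above, or all below, its 6 arrays at 0 h. The mean log2(signal + 16) over the members was 10.28 ± 0.43 (SD, n = 6 arrays) at 0 h and 10.21 ± 0.36 at 1 h. It was 11.51 ± 0.56 at 4 h, with single arrays from 10.92 to 12.42 against 9.70 to 10.93 at 0 h. The lowest 4 h array (code 16) thus lay just under the highest 0 h array (code 32), and the other 4 h arrays lay above every 0 h array.

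**Figure D1:**
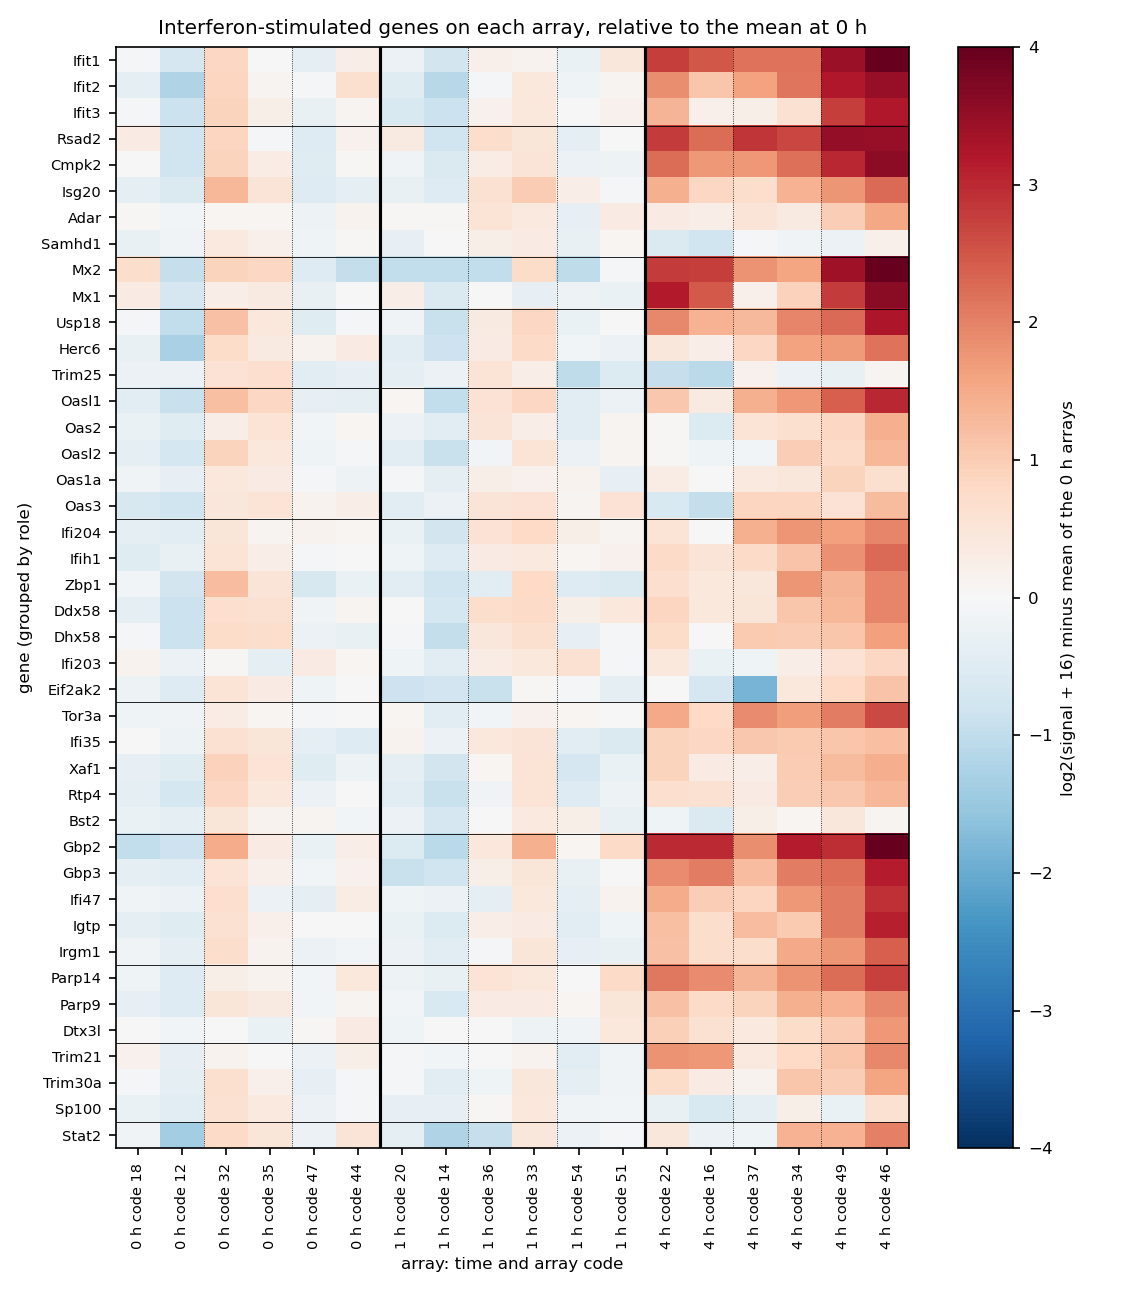
Each cell is log2(signal + 16) of a gene (row, grouped by role) on an array (column, ordered by time and array code) minus the mean of the 6 arrays at 0 h; red is higher and blue lower. The 1 h columns look like the 0 h columns, and the 4 h columns are red for most genes, most deeply on the arrays with codes 46 and 49 and least for Bst2, Eif2ak2, Samhd1, Sp100 and Trim25.

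At 4 h most of the measured members had risen. Against 0 h, 31 of 42 passed upward, where 9.93% of all tested probe sets did, and 0 passed downward, where 23.1% did. At an unadjusted p the counts were 32 and 0. Without the 6 arrays of the code range 44 to 54 the upward count was 17, and the share of all tested probe sets was not counted there. Within the range 32 to 37 alone it was 4 (background 2.48%). Both fits hold fewer arrays, so these counts cannot be set directly against 31. Leaving out 12 to 22 or 32 to 37 instead gives fits as large as that without 44 to 54. Without 32 to 37 no call of the 31 was lost, and without 12 to 22 those for Ifit3, Rtp4, Trim30a, Xaf1 and Zbp1 were. The members' median log2 difference was 1.18 without 12 to 22, 1.49 without 32 to 37 and 0.77 without 44 to 54. In a model of all arrays that also held the code range the counts were 32 (background 12.6%) and 0 (30.3%), Oas1a being the added gene. The median log2 difference of the members was 1.19, and 38 of 42 lay above 0. The median of all tested probe sets was -0.22 on the deposited scale and 0.04 when each array was centred on its median. On the deposited scale the members' median lay 1.41 above that of all probe sets. Centring shifts all probe sets of an array alike, so it cannot change this distance. After quantile normalization the distance was 1.23. Centring moved the share of upward calls among all calls from 30.0% to 61.0%, and quantile normalization moved it to 45.0%, while the members' own count was 32 and 31. Of the risen members 25 were at least 2-fold and 10 at least 4-fold higher. In 17 members every array at 4 h exceeded every array at 0 h, which held for 5.59% of tested probe sets. The counts of 31, 25, 10 and 17 include Mx2, whose probe set passed the filter only with its 4 h arrays. RNA was taken from cells in bulk, so more cells of a type and more RNA per cell cannot be told apart.

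**Figure D2:**
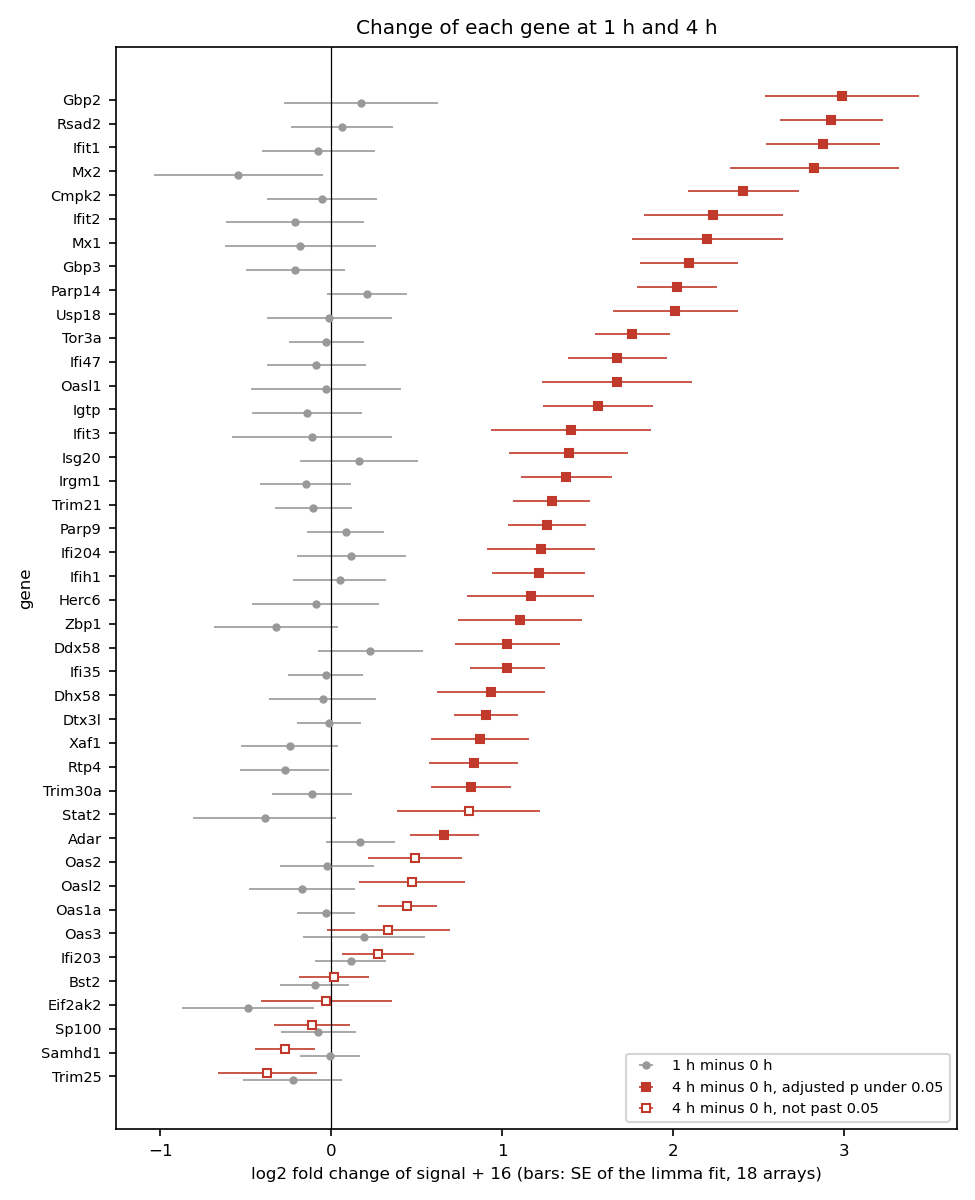
Log2 fold change of signal + 16 against 0 h for each of the 42 genes at 1 h (grey circles) and 4 h (red squares, filled where the adjusted p passed 0.05), with the SE of the limma fit over 18 arrays as bars. The 1 h values lie between -0.54 and 0.23, and the 4 h values run from -0.37 for Trim25 to 2.99 for Gbp2.

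The largest change was that of Gbp2, a guanylate-binding protein that assembles on vacuoles and microbes. Its signal had a lowest, median and highest value of 272, 559 and 1561 at 0 h, and of 252, 658 and 1499.8 at 1 h. At 4 h these were 2026, 4463 and 9091, so the groups did not overlap, and the log2 difference was 2.99 ± 0.45 (SE), or 7.93-fold, with an adjusted p of 6.95e-05 by limma. Rsad2 encodes viperin, a radical SAM enzyme that makes a chain-terminating nucleotide. Its signal was 1379, 2490.2 and 4339 (lowest, median, highest) at 0 h, and 1381, 2709 and 3872 at 1 h. At 4 h it was 11269.6, 16892 and 27217, again above every earlier array, with a log2 difference from 0 h of 2.92 ± 0.30 and an adjusted p of 1.49e-06. Ifit1 encodes a protein that binds viral RNA lacking the host's cap methylation. It had 531, 838 and 1538 at 0 h, 503, 832 and 1166 at 1 h, and 3875, 5345 and 16289.6 at 4 h. Its log2 difference at 4 h was 2.88 ± 0.33 with an adjusted p of 4.76e-06, and the highest of its 4 h arrays was that with code 46.

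Mx2, a dynamin-like GTPase that restricts viruses, was dim before treatment. Its signal was 17.2, 58.2 and 103 at 0 h and 15.8, 16.8 and 90.01 at 1 h, and it was above the median of its array on 2 of 6 arrays at 0 h. At 4 h it was 178, 424 and 1583, above the array median on all 6, with a log2 difference of 2.83 ± 0.49 (adjusted p 0.000287). It was above the median on 1 of 6 arrays at 1 h, so it passed the filter only with its 4 h arrays, and the filter favoured a rise. Its call is therefore not taken as support, and the added 16 makes this fold change smaller than the ratio of the signals. The other 41 members were above the array median on all 6 arrays at 0 h. Cmpk2 is a mitochondrial nucleotide kinase that lies beside Rsad2 on the chromosome. Its signal was 434, 777 and 1429.6 at 0 h, 499, 671 and 1096 at 1 h, and 2533, 3576 and 9235 at 4 h, a log2 difference of 2.41 ± 0.32 (adjusted p 2.15e-05). Ifit2, a relative of Ifit1, had 651, 1544 and 2766 at 0 h, 689, 1390.2 and 2043 at 1 h, and 3258, 6097 and 17168 at 4 h. Its log2 difference was 2.24 ± 0.41 (adjusted p 0.000401). For all of these genes the 6 arrays at 4 h lay above the 6 at 0 h.

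The promoters of the highest risers that hold the response element, and of the members with the lowest changes, are shown because they let the element be seen beside a member that rose and one that did not. The sequences are the 250 bases before the gene start from RefSeq's promoter table for GRCm38.p6, written 5' to 3' on the gene's strand. Capitals mark the element's core, searched as GAAA, any 2 bases and GAAA, or its reverse complement. Gbp2 is read from chr3:142620413-142620662 (plus strand), Rsad2 from chr12:26456453-26456702 (minus), Ifit1 from chr19:34640639-34640888 (plus), Trim25 from chr11:88999153-88999402 (plus) and Samhd1 from chr2:157135097-157135346 (minus).
Gbp2: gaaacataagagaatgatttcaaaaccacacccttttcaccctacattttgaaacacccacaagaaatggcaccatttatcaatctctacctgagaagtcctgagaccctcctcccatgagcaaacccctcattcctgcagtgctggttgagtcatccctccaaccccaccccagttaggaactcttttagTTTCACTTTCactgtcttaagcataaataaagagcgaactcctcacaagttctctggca
Rsad2: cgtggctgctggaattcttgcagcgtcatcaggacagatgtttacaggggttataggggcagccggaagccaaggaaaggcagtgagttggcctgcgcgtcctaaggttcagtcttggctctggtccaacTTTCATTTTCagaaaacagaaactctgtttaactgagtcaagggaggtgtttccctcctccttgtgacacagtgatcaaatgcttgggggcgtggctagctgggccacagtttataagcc
Ifit1: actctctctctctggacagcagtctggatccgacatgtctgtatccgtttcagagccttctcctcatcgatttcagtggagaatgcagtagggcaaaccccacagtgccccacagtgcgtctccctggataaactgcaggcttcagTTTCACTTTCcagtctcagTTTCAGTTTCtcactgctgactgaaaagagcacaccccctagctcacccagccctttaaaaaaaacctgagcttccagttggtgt
Trim25: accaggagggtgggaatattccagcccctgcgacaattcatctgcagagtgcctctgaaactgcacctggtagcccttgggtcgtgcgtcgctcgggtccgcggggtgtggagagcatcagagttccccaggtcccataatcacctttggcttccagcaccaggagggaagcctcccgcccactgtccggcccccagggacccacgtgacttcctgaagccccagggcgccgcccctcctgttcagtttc
Samhd1: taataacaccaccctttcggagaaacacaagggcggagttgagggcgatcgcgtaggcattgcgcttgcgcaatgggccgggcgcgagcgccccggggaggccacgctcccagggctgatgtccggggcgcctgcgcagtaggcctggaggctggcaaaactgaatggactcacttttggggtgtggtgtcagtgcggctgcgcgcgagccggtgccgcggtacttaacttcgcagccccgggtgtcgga
Gbp2 and Rsad2 each hold 1 core, whose first base lies at -59 and -120 from the start, and Ifit1 holds 2, at -104 and -85. The cores of Gbp2 and the farther one of Ifit1 have the same 10 letters, TTTCACTTTC. Trim25 and Samhd1 hold none in these letters. The risers shown were picked for holding the core, so this contrast was partly set by the choice.

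Over the whole window of 250 bases before and 50 after the start, on both strands, 18 of the 33 listed genes with a RefSeq promoter entry held the core (54.5%). Isg15 is one of them. The same held for 3.99% of all 27025 genes with an entry. The core stood in 11 of 21 risen members with an entry (52.4%) and in 6 of 10 that did not pass at 4 h (60.0%), and the difference was not tested. The 6 are Bst2, Eif2ak2, Ifi203, Oas1a, Oas3 and Stat2. Bst2 and Oas1a hold 2 overlapping matches each, and Oas3 holds 1 at -75. The gamma-activated site, searched as TTCNNNGAA, stood in 27.3% of the listed genes and 9.55% of all. A pattern like the NF-kB site, GGG, any 5 bases and CC, stood in 66.7% and 53.5%. A match describes the letters and not binding.

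The families differed in how many members rose at 4 h, and no test compared them. All 3 IFIT genes rose, with log2 differences from 1.40 (Ifit3) to 2.88. The call for Ifit3 was lost without any 1 of the arrays with codes 12, 46, 47 and 49 (adjusted p 0.0527 to 0.0692). Of the MX genes Mx1 rose by 2.20 ± 0.44 (adjusted p 0.000959), and the call for Mx2 is not taken as support, as said above. All 5 interferon-inducible GTPases of the lists other than MX rose: Gbp2, Gbp3 (2.09), Ifi47 (1.67), Igtp (1.56) and Irgm1 (1.38), proteins that act on vacuoles holding bacteria and parasites. All 3 of Parp9, Parp14 and Dtx3l, ADP-ribosyltransferases and a ubiquitin ligase that partners Parp9, rose by 1.26, 2.02 and 0.90. Parp14 had 1504, 2210.4 and 2943 at 0 h and 5616, 8846 and 14652 at 4 h.

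Among enzymes acting on nucleotides and RNA 4 of 5 rose. Beside Rsad2 and Cmpk2 these were Isg20, a 3' to 5' exonuclease (1.39 ± 0.35), and Adar, which deaminates adenosine in double-stranded RNA (0.66 ± 0.20). Samhd1, which hydrolyses dNTPs, did not pass (-0.27 ± 0.18, adjusted p 0.257), and none of its 5 probe sets did. For Adar 1 of 3 probe sets passed, the other two having log2 differences of 0.45 and 0.25 (adjusted p 0.118 and 0.402).

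The sensors of foreign nucleic acid and the proteins that act with them had 5 of 7 risen. The cytosolic RNA helicases Ddx58 (RIG-I), Ifih1 (MDA5) and Dhx58 (LGP2) rose by 1.03, 1.21 and 0.93. Dimmer probe sets of Ddx58 had 1.03 (adjusted p 0.0824) and 1.17 (0.0422). Those of Dhx58 had 0.19 (0.738) and 0.61 (0.0247). Zbp1, a sensor of Z-form nucleic acid, rose by 1.10, and Ifi204, of the family of DNA-binding PYHIN proteins, by 1.23. The call for Dhx58 was lost without any 1 of the arrays with codes 12, 44, 46, 47 and 49 (adjusted p 0.053 to 0.0732), and that for Zbp1 without any 1 of those with codes 12, 34, 44, 46 and 47 (0.051 to 0.0659). Ifi203, a relative of Ifi204, did not pass (0.27, adjusted p 0.335). Further probe sets of Ifi203 and Ifi204 list several genes of this family, so the 2 genes may share signal. Eif2ak2, the kinase PKR that halts translation on double-stranded RNA, did not pass (-0.03 ± 0.38, adjusted p 0.965; above 0 after centring or quantile normalization). Its 4 h signals ran from 273 on the array with code 37 to 2331 on that with code 46, wider than the 720 to 1533 at 0 h. Another Eif2ak2 probe set had a log2 difference of 0.67 (adjusted p 0.0979, and 0.0392 in the model with the code range).

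The oligoadenylate synthetases, which make the second messenger that activates RNase L, had 1 of 5 risen. Oasl1, which is known for restraining Irf7 translation and does not make the messenger, rose by 1.67 ± 0.44 (adjusted p 0.00699). Oas1a, Oas2, Oas3 and Oasl2 had log2 differences of 0.45, 0.49, 0.33 and 0.47, with adjusted p from 0.0536 (Oas1a) to 0.507 (Oas3). Oas1a passed in the model with the code range (adjusted p 0.0163). Oas3 had 581, 1177 and 1508 at 0 h and 522, 1693 and 2478 at 4 h, so the groups overlapped over the whole 0 h range. The Oas genes lie in a cluster of related copies, so a probe set's signal may not come from 1 gene alone.

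Of the ISG15 system Usp18, the protease that removes ISG15 and dampens the receptor, rose by 2.01 ± 0.36 and Herc6, its ligase in the mouse, by 1.17 ± 0.37. The call for Herc6 was lost without code 12 or 46 (adjusted p 0.0529 and 0.0562). Dimmer Herc6 probe sets had 1.58 (adjusted p 0.00192), 0.89 (0.101) and 0.82 (0.216). Trim25, a ubiquitin ligase that activates RIG-I, had 4540.0, 5339 and 9989 at 0 h, 3067, 5072 and 9195 at 1 h, and 2963, 5229 and 7017 at 4 h. The groups overlapped, and its log2 difference at 4 h, -0.37 ± 0.29, did not pass (adjusted p 0.343). Its 3 probe sets disagreed: a second had -0.39, and another, dimmer, had 0.58 (adjusted p 0.19, and 0.00631 in the model with the code range). Trim21, an antibody receptor in the cytosol, and Trim30a rose by 1.29 and 0.82. Sp100, of the nuclear bodies, did not pass (-0.11, adjusted p 0.729; 0.14 after centring), and another of its probe sets had 0.39 (adjusted p 0.262).

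Stat2, the only signal transducer on the list, had a log2 difference of 0.80 ± 0.42 at 4 h against 0 h that did not pass (adjusted p 0.153). Against 1 h it was 1.19 and passed (adjusted p 0.0457). A dimmer Stat2 probe set had 0.63 against 0 h (adjusted p 0.162, and 0.0466 in the model with the code range). Against 1 h that probe set had 0.96 (adjusted p 0.043). Of the remaining members Tor3a (1.76), Ifi35 (1.03), Xaf1 (0.87) and Rtp4 (0.83) rose. The call for Xaf1, a protein that promotes apoptosis, was lost without any 1 of the arrays with codes 12, 18, 44, 46, 47 and 49 (adjusted p 0.0505 to 0.0642), and that for Rtp4 without code 12 or 46 (0.0518 and 0.0505). A dimmer probe set of each did not pass, with -0.16 for Xaf1 and 0.78 for Rtp4 (adjusted p 0.652 and 0.129). Rtp4, a chaperone of membrane receptors, had the highest mean signal of the chosen probe sets: 4858, 7303 and 14113.5 at 0 h, 4204, 6349 and 11395 at 1 h, and 9809, 14162 and 19732 at 4 h. Its groups overlapped through the 0 h arrays with codes 32 and 35, and the difference of 0.83 ± 0.26 had an adjusted p of 0.0202. Bst2, or tetherin, which holds budding virus at the cell surface, had 4362, 5591 and 7879 at 0 h and 3749, 5928 and 7626 at 4 h. Its log2 difference was 0.02 ± 0.20 (adjusted p 0.964; -0.12 after quantile normalization). Bst2 is also a marker of plasmacytoid dendritic cells. Of 8 such markers with a probe set the filter kept 5: Bst2, Tcf4, Irf8, Klk1 and Cox6a2. It did not keep Siglech, Ccr9 and Ly6d.

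Against the 1 h arrays, 31 of 42 members were higher at 4 h, where 7.7% of tested probe sets were, and 0 were lower, where 16.7% were. At an unadjusted p the counts were 33 and 0. Both comparisons share the 4 h arrays. Of these members 29 passed in both. Ddx58 (0.80, adjusted p 0.0676) and Adar (0.49, adjusted p 0.0858) passed only against 0 h. Oas1a (0.48, adjusted p 0.0496) and Stat2 passed only against 1 h. Whether the 2 comparisons differ for these genes was not tested. In the model with the code range 33 were higher (background 10.6%) and 0 lower (23.3%). In 17 members every 4 h array exceeded every 1 h array, against 3.62% of tested probe sets. Mx2, which passed the filter only with its 4 h arrays, is among these 17 and among the 31.

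**Figure D3:**
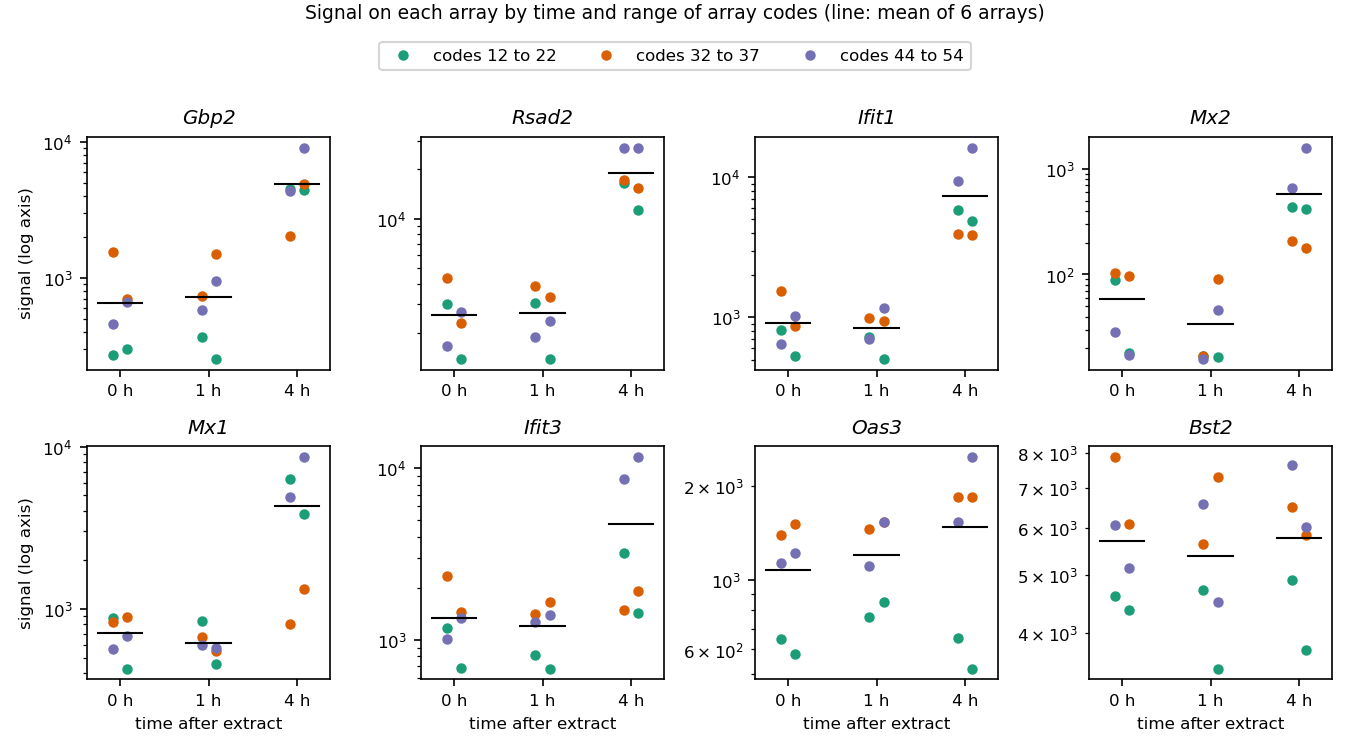
Signal (log axis) of 8 genes on every array at 0 h, 1 h and 4 h, coloured by the range of array codes, with the mean of 6 arrays as a line. Gbp2, Rsad2, Ifit1 and Mx2 at 4 h lie above all earlier arrays, Mx1 and Ifit3 in the range 32 to 37 overlap their 0 h signals, and Oas3 and Bst2 overlap between times. Mx2 passed the filter only with its 4 h arrays.

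The level of the members differed between the ranges of array codes. With time in the model, 16 of 42 were higher in the range 32 to 37 than in 12 to 22 (background 9.65% of tested probe sets) and 0 were lower (8.12%). In 44 to 54 against 12 to 22 it was 11 (background 10.5%) and 0 (8.66%). The median differences were 0.58 and 0.51, and those of all tested probe sets 0.00 and 0.03 (log2). The fitted level was lower in 12 to 22 than in both other ranges for 38 of 42, and the share of all tested probe sets was not counted. Oas3 had the largest difference in 32 to 37, 1.24 ± 0.16, and 1.10 ± 0.16 in 44 to 54 (adjusted p 0.000128 and 0.000194). On single arrays its signal lay between 522 and 854 in 12 to 22 at any time and between 1107 and 2478 in the other ranges. Ifi204 (1.08 and 0.91) and Herc6 (1.13 and 1.02) also passed in both, as did Bst2, Ddx58, Ifit2, Oas2, Oasl2 and Parp9. The counts moved by more than 1.5 times without single arrays: 16 became 27 without the 4 h array with code 37, and 11 became 6 without code 16 or code 49, and 7 without code 12, 14 or 46.

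Between 32 to 37 and 44 to 54 only 3 members differed. Dtx3l was higher in 44 to 54 (0.47, adjusted p 0.039), where 8.87% of tested probe sets were. Ifi35 and Trim25 were lower there (-0.64 ± 0.16 and -0.76 ± 0.20, adjusted p 0.0106 and 0.0138), where 8.25% were. Ifi35, a leucine-zipper protein, had 4186, 5676 and 9238 at 0 h and 3999, 5853 and 8615 at 1 h. At 4 h it was much narrower, 10806, 12612 and 13953, above every earlier array. Its 0 h signals were 9238 and 8456.5 in 32 to 37 and 4541 and 4186 in 44 to 54, while its 4 h signals were 12721.5 and 12502 against 12940.5 and 13953. The call for Dtx3l was lost without any 1 of 7 arrays, those with codes 33, 34, 35, 37, 44, 46 and 51.

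Already at 0 h the untreated arrays of 32 to 37 stood above those of 12 to 22. The median member was 0.82 higher (log2), 40 of 42 were above 0, and 4 passed, where 1.52% of tested probe sets did (1.44% downward): Oasl1 (1.67), Isg20 (1.40), Ddx58 (1.26) and Oas3 (1.22). In 44 to 54 the median member at 0 h was 0.25 above 12 to 22 and 0 passed upward (background 2.79%) or downward (0.701%), with 4 and 1 at an unadjusted p. In 44 to 54 against 32 to 37 at 0 h none passed upward (2.42%) and 3 downward (1.59%): Isg20 (-1.35), Trim25 (-1.03) and Ifi35 (-1.02). Isg20 had 170.4, 198 and 678 at 0 h, 178, 282 and 541 at 1 h, and 439.6, 717 and 1308 at 4 h, and its 2 highest 0 h arrays were those of 32 to 37. The mean log2 over the members was 9.90 at 0 h, 9.86 at 1 h and 11.12 at 4 h in 12 to 22. It was 10.75, 10.59 and 11.26 in 32 to 37, and 10.18, 10.18 and 12.15 in 44 to 54. The range with the highest untreated level had the smallest rise, but that with the lowest, 12 to 22, did not have the largest. The same 0 h arrays enter both the level and the rise, and a link between them was not tested.

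**Figure D4:**
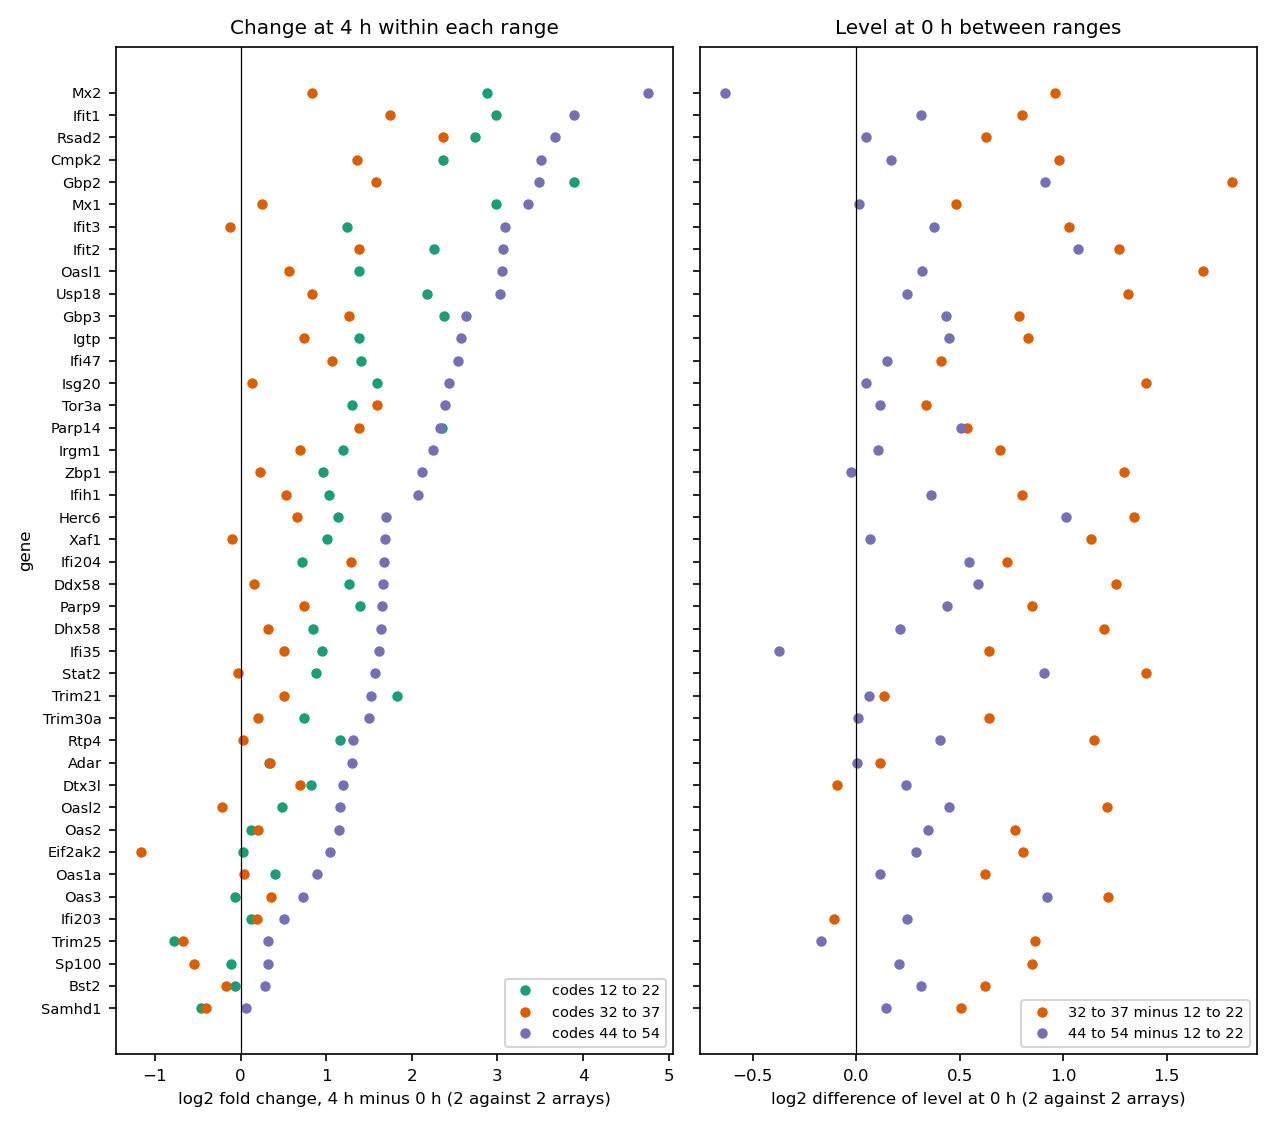
Left, log2 fold change at 4 h against 0 h of each gene within each range of array codes (2 against 2 arrays). Right, difference of the 0 h level of the ranges 32 to 37 and 44 to 54 from the range 12 to 22. In the left panel the median is 1.15 for codes 12 to 22, 0.43 for 32 to 37 and 1.68 for 44 to 54; in the right panel the 32 to 37 points lie mostly to the right, with a median of 0.82.

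Fitted within each range alone, on 2 arrays a time, 20 members rose at 4 h in 12 to 22 (background 5.98%), 4 in 32 to 37 (2.48%) and 33 in 44 to 54 (5.26%). The 20 and the 33 include Mx2, whose probe set passed the filter only with its 4 h arrays. The 4 in 32 to 37 were Ifit1, Rsad2, Parp14 and Tor3a. All 42 were above 0 in 44 to 54, 37 in 12 to 22 and 33 in 32 to 37. Trim25 fell in 12 to 22 (-0.78, adjusted p 0.0359), where 9.53% of tested probe sets fell, and had -0.67 in 32 to 37 and 0.32 in 44 to 54, neither of which passed. In 32 to 37 and 44 to 54 no member fell, where 2.11% and 9.4% of tested probe sets did. At 1 h 0 members passed within any range, with backgrounds of 0.198% up and 0.0155% down in 32 to 37, 0.481% and 0.0659% in 44 to 54, and 0% both ways in 12 to 22. These counts do not compare the ranges, since calls depend on the spread of 2 arrays.

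The difference itself was tested with an F test over the 3 ranges. At 4 h it passed for 2 of 42, Ifit3 and Mx1, where 0.837% of tested probe sets passed, and for 26 at an unadjusted p, where 10.3% did. Mx2, which passed the filter only with its 4 h arrays, is among the 26. At 1 h the counts were 0 and 0, with backgrounds of 0% and 3.56%. Ifit3 had 1172 and 686 at 0 h in 12 to 22 and 3202 and 1435 at 4 h. In 32 to 37 it had 2340.1 and 1459 at 0 h and 1484 and 1924 at 4 h, and in 44 to 54 1014 and 1343 at 0 h and 8651 and 11672 at 4 h. The log2 differences were 1.24, -0.13 and 3.09 (adjusted p of the F test 0.0385). Mx1 had 872 and 428 at 0 h and 6343 and 3857 at 4 h in 12 to 22. In 32 to 37 it had 832 and 889 at 0 h and 800.04 and 1320.5 at 4 h, and in 44 to 54 561 and 681 at 0 h and 4883 and 8643 at 4 h. The log2 differences were 2.98, 0.25 and 3.36 (adjusted p 0.0442). For both genes the 4 h and 0 h signals overlapped in 32 to 37 and did not in the other ranges. Of the pairs of ranges, the difference of 32 to 37 from 12 to 22 passed for Mx1 (-2.73 ± 0.58, adjusted p 0.0434). With 1 array left out, the call for Ifit3 held without code 22 or 16 and was lost without each of the others (adjusted p 0.0265 to 0.14). That for Mx1 held without code 49, 20 or 14 and was lost without each of the others (0.0421 to 0.184).

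The summed signals of stromal and of neutrophil markers differed between the ranges. The summed signal of 8 stromal markers, such as collagens, lay between 2684 and 3683 on the arrays of 12 to 22, 7445 and 13123 in 32 to 37, and 25207 and 33972 in 44 to 54, with 7 kept by the filter. Those of 10 neutrophil markers with a probe set lay between 3952 and 6657, 1931 and 4196, and 1386 and 2696. Not every neutrophil marker followed this sum: Csf3r had mean signals of 682, 592 and 779 in the same order of ranges. All 14 macrophage markers and 4 of 4 leukocyte markers were kept, and the macrophage sum lay between 214262 and 280057 on all arrays. The filter kept 1 of 7 T cell, 2 of 6 B cell, 2 of 6 NK cell, 3 of 7 conventional dendritic, 5 of 8 plasmacytoid dendritic and 2 of 4 erythroid markers with a probe set. Of those kept, no stromal marker passed at 1 h or 4 h against 0 h, and 1 neutrophil marker rose at 4 h. At 4 h 3 macrophage markers and 1 conventional dendritic marker rose, and 2 macrophage, 2 leukocyte, 1 plasmacytoid dendritic and 1 B cell marker fell. Their part in the differences between times and between ranges was not tested.

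The other genes of the interferon pathway were taken from a list of 41, of which 35 had a probe set naming them alone and 29 passed the filter. At 1 h 2 of the 29 had risen and 0 had fallen, where 0.612% and 0.14% of all tested probe sets had. At 4 h 16 had risen and 3 had fallen, where 9.93% and 23.1% of all had. The 16 include Il12b and Socs1, whose probe sets passed the filter only with their 4 h arrays. The interferons themselves were dim. Ifnb1 (interferon beta) had 24.2, 49.96 and 63.7 at 0 h and 31.6, 49.2 and 75.8 at 1 h. At 4 h it had 50.2, 73.2 and 95.5, with 0 of 6 arrays above their own median at 0 h and 3 of 6 at 4 h. It did not pass the filter, and in the fit without a filter its log2 difference at 4 h was 0.51 ± 0.20 (adjusted p 0.107). Ifna1, Ifna2, Ifna4 and Ifng did not pass the filter either. Il12b, a subunit of interleukin 12, which drives interferon gamma production, rose by 3.90 (adjusted p 0.00252), but its probe set passed the filter only with its 4 h arrays. Its 4 h signals were 6337 and 12195 in the range 12 to 22 and 216, 189, 397 and 390.4 on the other arrays, against at most 94.5 at 0 h.

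Irf1 and Socs3 were the pathway genes that rose at 1 h. Irf1, a transcription factor induced by interferon and by NF-kB, had 834, 1068 and 1208 at 0 h and 906, 5322 and 9339 at 1 h. It rose by 2.08 ± 0.41 at 1 h (adjusted p 0.0167) and by 2.44 at 4 h. The 1 h array with code 14, at 906, lay within the 0 h range, and the members' mean on that array, 9.69, was the lowest of all arrays. Socs3, an inhibitor of cytokine receptor signalling, rose by 3.82 at 1 h and 4.86 at 4 h. With each array left out in turn, that with code 14 included, 0 members passed at 1 h.

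Of the receptors Ifnar1 rose at 4 h (0.74), and Ifnar2, Ifngr1 and Ifngr2 did not pass (-0.22, -0.19 and 0.08). Of kinases and transcription factors 4 of 11 rose: Jak2 (2.50), Irf1, Tyk2 (0.55) and Irf9 (0.40). Jak2 had 958, 1538 and 1780.1 at 0 h and 4671, 8580.5 and 10247 at 4 h, with no overlap. Irf2, which can repress interferon targets, fell by 0.77. Irf7, the factor that amplifies interferon production, had 737, 1587 and 2542 at 0 h and 1319, 2562 and 4054 at 4 h. It did not pass (0.73, adjusted p 0.131; 0.00119 in the model with the code range). Of the adaptors and kinases that lead to interferon production Ikbke (2.74), Ticam1 (1.02), Myd88 (0.98) and Tbk1 (0.80) rose, and Mavs, the mitochondrial adaptor of RIG-I and MDA5, fell by 1.52. Of genes that restrain the signal Socs1 (1.95), Socs3 and Ptpn2 (0.83) rose and Pias1 fell by 0.40. Socs1 was above the array median on 0 of 6 arrays at 0 h and at 1 h and on 5 of 6 at 4 h, so it passed the filter only with its 4 h arrays. Without the filter Tyk2, Irf9 and Pias1 did not pass (adjusted p 0.0763, 0.106 and 0.0914). The chemokines Ccl5 (4.77), Cxcl10 (3.93) and Cxcl11 (2.13) rose, and Cxcl9, a target of interferon gamma, did not pass the filter. The signal of Cxcl10 at 4 h lay between 1978 and 17416, with its lowest arrays, 1978 and 4417, in the range 32 to 37.

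**Figure D5:**
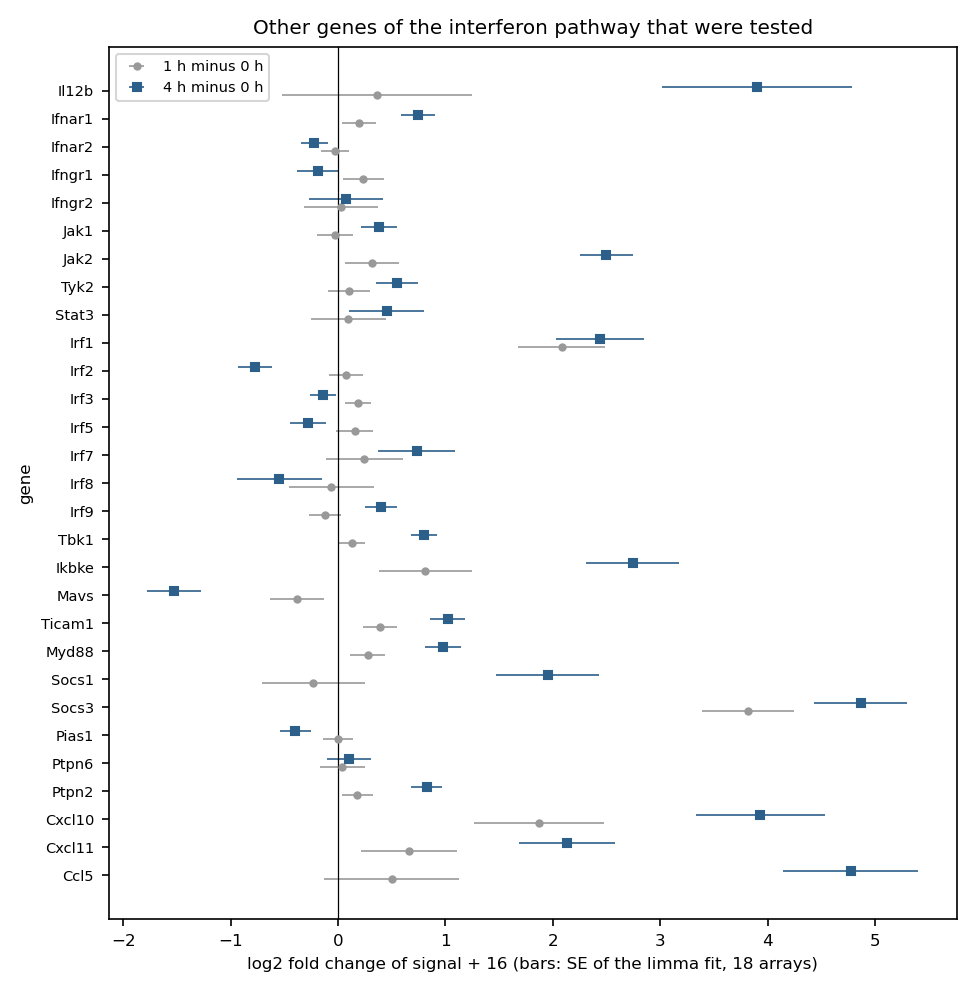
Log2 fold change of signal + 16 against 0 h of the 29 tested pathway genes that are not on the list, at 1 h (grey circles) and 4 h (blue squares), with the SE of the limma fit over 18 arrays as bars. Irf1 and Socs3 are the genes past the threshold at 1 h, and Irf2, Mavs and Pias1 are those that fell at 4 h.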

How the data were processed

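Total RNA of 18 mouse immune cell samples was measured on Affymetrix 3' arrays, 6 each at 0 h, 1 h and 4 h, grouped by the time in each label. The deposited values are linear signal intensities, 1 per probe set and array, made by the authors with MAS5 and GCOS per the submitters' processing notes, with versions and settings not given in the sources used here. Probe sets were named with GEO's platform annotation: 34945 carry a single symbol, 932 several and 9160 none. The 64 control probe sets were left out.

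All tests used log2 of signal plus 16, without renormalizing the arrays. In limma 3.58.1 (R 4.3.3, lmFit and eBayes) 1 mean for each time was fitted to the 18 arrays, with 15 residual degrees of freedom, for the 25804 probe sets (57.3%) above their own array's median on at least 4 arrays. P-values were adjusted by Benjamini-Hochberg over all of them, and "rose", "fell" and "passed" refer to 0.05. Levels of ranges came from a fit with time and range, and the difference of responses from a fit with a mean for each time in each range, of 2 arrays each. Alternatives changed the pseudocount, scaling, filter, probe set rule, block and arrays. For counts of signs, fold sizes and unadjusted p outside the F test, the share of all tested probe sets was not counted. Those counts are descriptive. The fits were tested on simulated data. The list, the roles and the pathway and marker lists were chosen with earlier results of these data known. Signals and full statistics were given for the 6 largest changes at 4 h, members that fell in a comparison, the brightest and dimmest member and those that differed between ranges; promoters followed the rule stated with them. No 2 arrays were identical, and log2 correlations within a time were 0.918 to 0.97. The number of arrays limits the precision.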

Additional observations from a re-analysis of the deposited data

Results flagged for a closer look

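The change at 4 h against 0 h of Ifit3 differed between the 3 ranges of array codes, with an adjusted p of 0.0385 in limma's F test and log2 differences of 1.24, -0.13 and 3.09 in the ranges 12 to 22, 32 to 37 and 44 to 54. That of Mx1 differed with an adjusted p of 0.0442 and log2 differences of 2.98, 0.25 and 3.36. Among 126 sets of 6 arrays (42 genes at 3 times), 2 held a single array far from the others on the log2 scale, and chance alone gives about 1 in 20. Zbp1 at 1 h was 1246 on the array with code 33, and the next highest of the 6 was 520.0, a gap of 0.771 of the whole range. Dtx3l at 1 h was 2407 on the array with code 51, and the next was 1816, a gap of 0.654 of the range.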

How the results depend on the processing

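No paired analysis was possible because the labels give no replicate numbers and those used here follow accession order; the range of array codes was used as a block instead. The 1 h count of members stayed at 0 in both directions under every alternative run. At 4 h against 0 h the count of 31 was between 25 and 33 with 1 array left out (27 to 33 against 1 h), and between 30 and 32 under other pseudocounts, scalings, filters, the code range block, the fit of 2 times alone, every kept probe set and the trended robust fit. It was 20, with 1 member down, within the range 12 to 22, 4 within 32 to 37 (3 against 1 h), and, in an alternative chosen after seeing the data, 17 without the range 44 to 54 (18 against 1 h). These fits hold fewer arrays, so their counts cannot be set directly against 31. Fits of the same size as that without 44 to 54 had a members' median of 1.18 without 12 to 22 and 1.49 without 32 to 37. Without 44 to 54 it was 0.77. Of the 31 members 25 passed in every alternative other than those within or without a range (the others were Dhx58, Herc6, Ifit3, Rtp4, Xaf1 and Zbp1), and Ifit1, Rsad2 and Parp14 passed in each of 33. Mx2 had no value when 12 arrays above the median were asked for. The count of members whose response differed between ranges, 2, was 1 with a pseudocount of 1, 5 with a pseudocount of 64, 0 after centring, 1 after quantile normalization, 0 without a filter, 4 with the filter of 12 arrays, and 0 to 2 with 1 array left out. In 44 to 54 against 12 to 22 the count of 11 was 5 after centring, 6 without a filter and 6 to 16 with 1 array left out. In 32 to 37 against 12 to 22 the count of 16 was 11 to 27 with 1 array left out. In 44 to 54 against 32 to 37 the upward count of 1 was 0 after centring, without a filter and at the lowest with 1 array left out, and the downward count was 2 to 3. The cause of these moves was not tested.

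Signs of log2 differences at 4 h turned for members that had not passed, and for Ifit3 and Xaf1 within 32 to 37 (-0.128 and -0.096). Bst2 was -0.117 after quantile normalization, -0.066 within 12 to 22, -0.168 within 32 to 37, -0.117 without 44 to 54 and between -0.072 and 0.133 with 1 array left out. Eif2ak2 was 0.225 after centring, 0.042 after quantile normalization, 0.029 within 12 to 22, 1.044 within 44 to 54 (adjusted p 0.0353 by limma), 0.537 without 32 to 37 and between -0.266 and 0.339 with 1 array left out. Sp100 was 0.14 after centring, 0.316 within 44 to 54, 0.103 without 32 to 37 and between -0.257 and 0.009 with 1 array left out. Oas3 was -0.07 within 12 to 22, Oasl2 -0.222 and Stat2 -0.034 within 32 to 37, and Trim25 0.322 and Samhd1 0.058 within 44 to 54.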
